A study of Mus musculus with 6 samples.

Results

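Thyrotropes are the pituitary cells that secrete thyrotropin, the hormone that drives the thyroid gland. The genes described here are 7 genes of these cells and of thyroid hormone signalling: Tshb, Trhr, Dio2, Sox14, Thra, Thrb and Rxrg. They were chosen by name, and their probes were the non-control probes annotated with a RefSeq accession of one of them. This gave 10 probes out of 55681 on the array, 1 each for Tshb, Trhr, Dio2 and Sox14 and a pair each for Thra, Thrb and Rxrg. All 10 lay well above background on all 6 arrays, so none was lost to the filter on dim probes.

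The samples were whole pituitaries of 6 virgin C57BL6 females aged 8 weeks, each on an array of its own. The KO group held 3 Jmjd2a-/- females and the WT group 3 Jmjd2a+/+ littermates. Jmjd2a is the older name of Kdm4a, a demethylase of histone H3 lysines. All 6 females, WT as well as KO, had been exposed to soiled bedding of a stud male to activate the oestrus cycle and were killed 24 h later. Which part of the gene the null allele lacks is not stated in the labels used here.

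In the pituitary, thyrotropin-releasing hormone from the hypothalamus binds the receptor encoded by Trhr on thyrotropes and stimulates thyrotropin. Thyrotropin is a dimer of a beta subunit of its own, from Tshb, and an alpha subunit from Cga that it shares with the gonadotropins. The deiodinase encoded by Dio2 converts thyroxine into the active hormone T3 inside the gland. T3 binds the nuclear receptors encoded by Thra and Thrb, which pair with retinoid X receptors such as the product of Rxrg, and represses Tshb. Sox14 encodes a transcription factor of the SoxB family.

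Tshb and Dio2 are the pair on which the results below turn, one a product of the thyrotrope and the other the enzyme that supplies it with T3, so the 250 bases before their RefSeq start sites are shown. The promoter table used GRCm38.p6 and held entries for 5 of the 7 genes, all but Trhr and Thra. The Tshb sequence lies at chr3:102782715-102782964 and the Dio2 sequence at chr12:90739039-90739288, both on the minus strand and written 5′ to 3′ toward the start site. Capitals mark any match, on either strand, to 5 motifs. These were the core promoter box TATAAA, the site GATAAG of zinc finger factors such as Gata2, the Pit-1 site spelled TATNCAT, the cAMP response element TGACGTCA, and the thyroid hormone receptor half-site AGGTCA.
Tshb: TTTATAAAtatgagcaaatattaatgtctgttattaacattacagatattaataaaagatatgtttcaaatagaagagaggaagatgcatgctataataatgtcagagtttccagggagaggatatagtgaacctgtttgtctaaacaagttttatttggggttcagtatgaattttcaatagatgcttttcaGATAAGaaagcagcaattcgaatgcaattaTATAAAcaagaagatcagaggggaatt
Dio2: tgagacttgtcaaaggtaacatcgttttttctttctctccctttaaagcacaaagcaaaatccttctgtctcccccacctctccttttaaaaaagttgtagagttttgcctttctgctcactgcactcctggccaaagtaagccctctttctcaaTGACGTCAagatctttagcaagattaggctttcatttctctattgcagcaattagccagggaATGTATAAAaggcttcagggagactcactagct
The Dio2 window held the cAMP response element, which occurred in 1.55% of the 32851 promoter windows of this length. It also held a TATAAA (12.4% of windows) that overlapped a Pit-1 match on the other strand (7.92%). The Tshb window held GATAAG (6.55%) and TATAAA at 3 places, 2 of them overlapping on opposite strands at its far end. AGGTCA, found in 14.0% of windows, was in neither; it stood in 1 of the 2 windows each of Thrb and Rxrg. These are matches of letters and not measured sites.

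All values below are log2 spot signals relative to the 75th percentile of the same array, so 0 is the level of that percentile. Fold changes are KO over WT with the standard error from limma, fitted over 26889 genes and features with n = 3 arrays per group. The number of arrays limits the precision of every value. The percentile itself ran from 170 to 311 intensity units, and 34636 to 40569 probes per array lay well above background. WT replicate 3 stood apart in neutrophil transcripts (S100a8, S100a9, Ngp and Camp), whose summed signal was 14.0 times the array's percentile there against 1.16 to 2.34 on the other 5 arrays. The targeted gene, Kdm4a, had a log2 fold change of -0.62 ± 0.14 at its brighter probe. At an adjusted p under 0.05 (limma with Benjamini-Hochberg adjustment) 0 genes (0%) were called, at one under 0.1 there were 15 (0.0558%), and 3443 passed 0.05 without adjustment. With other processing between 0 and 28 genes were called at 0.05.

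Levels were also read for the markers chosen to stand for thyrotropes, Tshb, Trhr, Dio2, Cga, Pou1f1 and Gata2. All 6 were well above background on all arrays. Tshb, Trhr and Dio2 are members of the gene set themselves, and a whole pituitary holds thyrotropes. This reading could hardly have failed and gives the label of the set no support. Tshb itself gave 12362 to 25837 intensity units, where the array's 75th percentile was at most 311. In a whole gland, fewer cells of a type and less RNA per cell cannot be told apart.

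**Figure D1:**
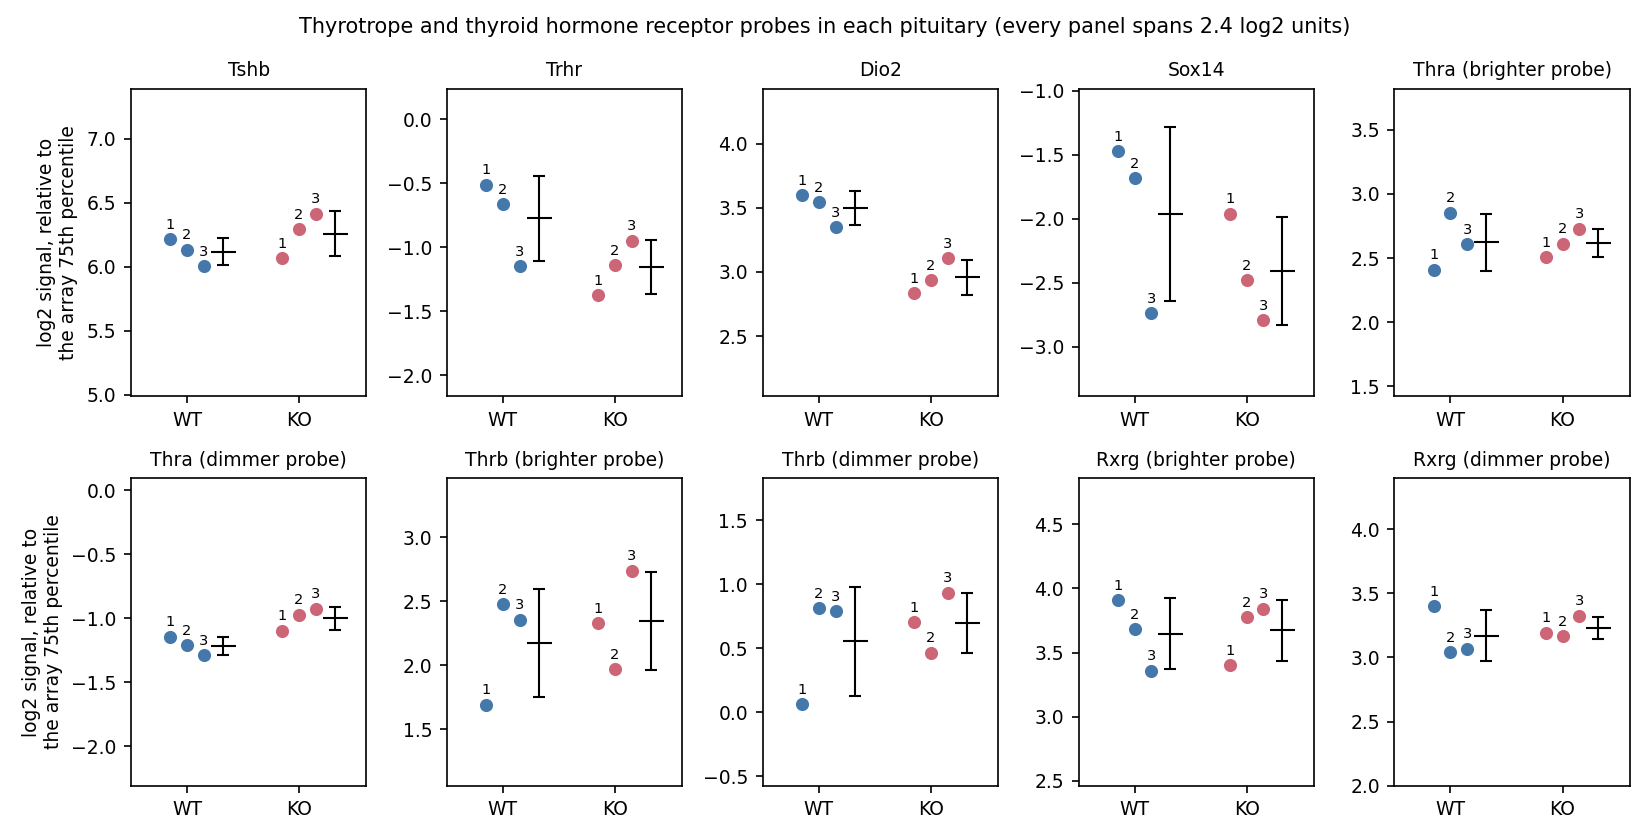
Log2 signal relative to the array's 75th percentile (y axis) for the 10 probes in 3 WT (blue) and 3 KO (red) pituitaries, numbered by replicate, with the mean and SD of each group in black. Dio2 is lower in every KO array, the dimmer Thra probe is higher in every KO array, and the groups overlap for the other 8 probes.

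Dio2, the T3-producing deiodinase, had the largest difference among the members and was the one gene whose groups separated. It read 3.60, 3.54 and 3.35 in WT replicates 1 to 3, and 2.83, 2.94 and 3.11 in KO replicates 1 to 3. Every KO array was below every WT array. The WT mean was 3.50 ± 0.13 and the KO mean 2.96 ± 0.14 (SD, n = 3 each). The log2 fold change was -0.54 ± 0.14, which puts the KO signal at 68.8% of WT (95% interval 55.1% to 85.9%). This did not pass the test over all genes (limma, unadjusted p = 0.00542, adjusted p = 0.279), and its p was among the smallest 1.94% of genes tested. Exact permutation of the arrays (two-sided) gave p = 0.1, and with 3 arrays a group no smaller p is possible.

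The separation of Dio2 depended on scaling the arrays, since the arrays differed in overall brightness. Unscaled signals were 2063, 3634 and 1964 intensity units in WT and 1757, 1783 and 2613 in KO, and these overlap. The log2 fold change stayed between -0.61 and -0.36 over 19 alternatives, with adjusted p from 0.171 to 0.613, and 18 of them gave an unadjusted p under 0.05. The smallest size came from centring each array on its median (unadjusted p = 0.0733, against an unadjusted p of 0.00111 with a variance trend and robust fitting). In the authors' value table the log2 fold change was -0.47. Dio2 is also made in glial cells, and markers of the posterior lobe were therefore compared. All 6 (Rax, Col25a1, Gfap, Avp, Oxt and Nkx2-1) were measured, and their summed signal was 12.5 to 16.9 times the percentile in WT and 12.6 to 14.5 times in KO. Most of that sum was Oxt, and the other 5 markers summed to 1.80 to 3.01 in WT and 1.72 to 2.02 in KO. Of the 6, 4 had a lower mean in KO (Avp, Col25a1, Gfap and Nkx2-1), and the list's median log2 fold change was -0.21. Avp read -0.31 to 1.04 in WT and -0.80 to -0.51 in KO, and Col25a1 -2.45 to -1.91 in WT and -2.63 to -2.54 in KO. Rax went the other way, at -0.95 to -0.44 in WT and -0.35 to 0.00 in KO. The groups did not overlap for these 3 genes of the 6, with Col25a1 read at its brightest probe. The dimmer Col25a1 probes did not all separate the groups. Over all genes the groups did not overlap for 20.6% (13.4% lower and 7.23% higher in KO). The part of the posterior lobe markers in the result for Dio2 was not tested.

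Tshb, the gene for the hormone's own subunit, had a slightly higher mean in KO, within its error. It read 6.22, 6.13 and 6.0 in WT replicates 1 to 3 and 6.07, 6.29 and 6.41 in KO replicates 1 to 3. The groups overlapped, with KO replicate 1 inside the WT range and the other two KO arrays above it. The log2 fold change was 0.14 ± 0.14 (limma, adjusted p = 0.657), and the 95% interval for the KO signal ran from 87.7% to 139% of WT. This interval does not reach the loss measured for Dio2.

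The difference between Dio2 and Tshb on the same array was nearly constant within each group. In WT it was -2.62, -2.59 and -2.65 in replicates 1 to 3, and in KO -3.23, -3.36 and -3.31. The WT mean was -2.62 ± 0.03 and the KO mean -3.30 ± 0.06 (SD, n = 3 each), a difference between the groups of -0.68 on the log2 scale. The KO ratio was 0.624 of the WT ratio. By exact permutation (two-sided) p was 0.1, the lower limit of this design, and the adjusted p over 3 such differences was 0.3. The groups had already separated for Dio2 itself, so this difference largely repeats that result and gives it no independent support. How often other pairs of genes separate the groups was not counted. A difference within an array does not depend on the scaling constant. It ran from -0.88 (quantile normalization) to -0.63 (arrays of slide row 1 alone) over the alternatives, and from -0.71 to -0.65 when each array was left out in turn.

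**Figure D2:**
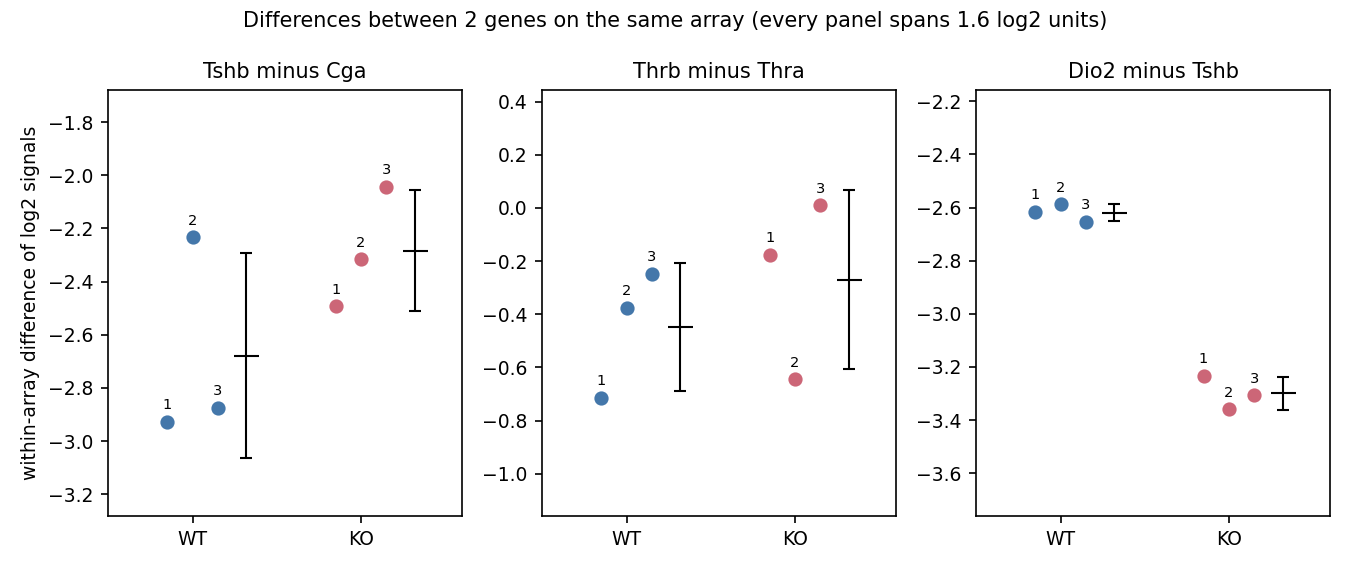
Differences of log2 signal between 2 genes on the same array (y axis) in 3 WT (blue) and 3 KO (red) pituitaries, numbered by replicate, with group mean and SD in black. The difference between Dio2 and Tshb lies between -2.65 and -2.59 in WT and between -3.36 and -3.23 in KO, while the other differences overlap between the groups.

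The partner subunit Cga, which thyrotropes share with gonadotropes, read 8.37 to 9.14 in WT and 8.46 to 8.61 in KO (log2 fold change -0.25 ± 0.21). The sign turned with the scaling, to 0.02 after quantile normalization and to 0.04 for the authors' values. Its unscaled signal was 90657 to 106415 intensity units on all arrays, a narrower span than that of the array percentiles, and no spot carried the saturation flag. Tshb minus Cga on the same array averaged -2.68 ± 0.39 in the WT arrays and -2.28 ± 0.23 in the KO arrays (SD, n = 3 each). The groups overlapped through WT replicate 2, and the exact permutation test gave p = 0.3 (adjusted p over the 3 differences 0.45). The difference between the groups, 0.40, was 0.62 without WT replicate 2, 0.27 without WT replicate 1 or KO replicate 3, and 0.30 without WT replicate 3. Tshb minus Cga was lowest on the dimmest arrays, -2.93 and -2.87 in WT replicates 1 and 3 (percentiles of 170 and 193 intensity units). It was highest on the brightest, -2.23 in WT replicate 2 (311) and -2.04 in KO replicate 3 (303). The part of array brightness in this difference was not tested.

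Trhr, the receptor for thyrotropin-releasing hormone, had a lower mean in KO, with overlapping groups. It read -0.51, -0.66 and -1.15 in WT replicates 1 to 3 and -1.37, -1.14 and -0.95 in KO replicates 1 to 3. WT replicate 3 lay within the KO range, and the other two WT arrays lay above it. The log2 fold change was -0.38 ± 0.20 (limma, unadjusted p = 0.104, adjusted p = 0.456), with a KO signal of 76.8% of WT (95% interval 54.9% to 107%). Without WT replicate 3, the array with the neutrophil transcripts, the value was -0.57 (unadjusted p = 0.0164, limma over 5 arrays). Without WT replicate 1 it was -0.25 and without KO replicate 1 -0.27 (unadjusted p = 0.279 for each).

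Sox14 had the largest standard error of the 7 genes. It read -1.47, -1.68 and -2.74 in WT replicates 1 to 3 and -1.96, -2.48 and -2.79 in KO replicates 1 to 3, and the groups overlapped. The log2 fold change was -0.45 ± 0.37 (limma, adjusted p = 0.598), and the 95% interval, 40.2% to 134% of WT, covers a loss by more than the size seen for Dio2 as well as a gain. As for Trhr, WT replicate 3 was the low WT array, and without it the value was -0.83 (unadjusted p = 0.0193, limma over 5 arrays). Without WT replicate 1 it was -0.20 (unadjusted p = 0.619) and without KO replicate 3 -0.26 (unadjusted p = 0.552). In the authors' value table Sox14 had -0.18 and Trhr -0.20. The part of the neutrophil-rich array in these values was not tested beyond leaving it out.

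For the receptors of T3, the differences at the brighter probes were smaller than their standard errors. The brighter Thrb probe read 1.69, 2.48 and 2.36 in WT replicates 1 to 3 and 2.33, 1.97 and 2.74 in KO replicates 1 to 3. WT replicate 1 was the lowest of all 6 arrays and KO replicate 3 the highest. The log2 fold change was 0.17 ± 0.27 (limma, adjusted p = 0.786), with a 95% interval from 71.8% to 176% of WT. The dimmer Thrb probe had the same low array, at 0.06 in WT replicate 1 against 0.47 to 0.94 on the other 5, and a log2 fold change of 0.15 ± 0.24. Both Thrb probes thus gave nearly the same value, and the difference between their fold changes was 0.02 (exact permutation p = 0.9). Leaving out WT replicate 1 gave Thrb -0.07, leaving out KO replicate 3 gave -0.03, and it was 0.51 in slide row 1 alone.

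Thra, the other T3 receptor gene, differed little between the groups at its brighter probe. It read 2.41, 2.85 and 2.61 in WT replicates 1 to 3 and 2.51, 2.61 and 2.73 in KO replicates 1 to 3. The KO range lay inside the WT range, and the log2 fold change was -0.01 ± 0.15 (limma, adjusted p = 0.988, 95% interval 77.4% to 128% of WT). The dimmer Thra probe read -1.15, -1.21 and -1.29 in WT replicates 1 to 3 and -1.10, -0.97 and -0.93 in KO replicates 1 to 3. Its groups did not overlap, KO being higher, but the log2 fold change of 0.22 ± 0.12 did not pass the test (limma over all probes, adjusted p = 0.483). The difference between the 2 probes' fold changes was -0.22 (exact permutation p = 0.4, adjusted p = 0.9 over the 3 genes with a pair of probes). Both Thra probes carry the same accession, and which transcripts each detects is not given in the files. Nr1d1, whose gene overlaps Thra on the chromosome, had a log2 fold change of 0.24 ± 0.24 (limma, adjusted p = 0.655). Thrb minus Thra on the same array averaged -0.45 ± 0.24 for WT and -0.27 ± 0.34 for KO (SD, n = 3 each; p = 0.5 by exact permutation).

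Rxrg, the retinoid X receptor partner, read 3.91, 3.68 and 3.36 in WT replicates 1 to 3 and 3.40, 3.77 and 3.84 in KO replicates 1 to 3 at its brighter probe. The groups spanned nearly the same range, and the log2 fold change was 0.02 ± 0.19 (limma, adjusted p = 0.962, 95% interval 74.2% to 139% of WT). The other probe read 3.40, 3.04 and 3.07 in WT and 3.19, 3.17 and 3.33 in KO, a log2 fold change of 0.06 ± 0.15. The probes' fold changes differed by -0.03 (exact permutation p = 0.8).

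Counted over the 7 genes, limma called 0 at an adjusted p under 0.05, with 1 (Dio2) at an unadjusted p under 0.05. That share is 14.3%, against 12.8% of all genes and features tested. Groups did not overlap for 1 of 7 genes, against 20.6% over all genes (13.4% lower and 7.23% higher in KO), and for 2 of 10 probes, 1 lower and 1 higher, against 20.3% over all probes (13.4% lower, 6.91% higher). These shares were near or below the background, so the set as a whole did not stand out. The members' median was -0.01 and that of all genes -0.07.

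**Figure D3:**
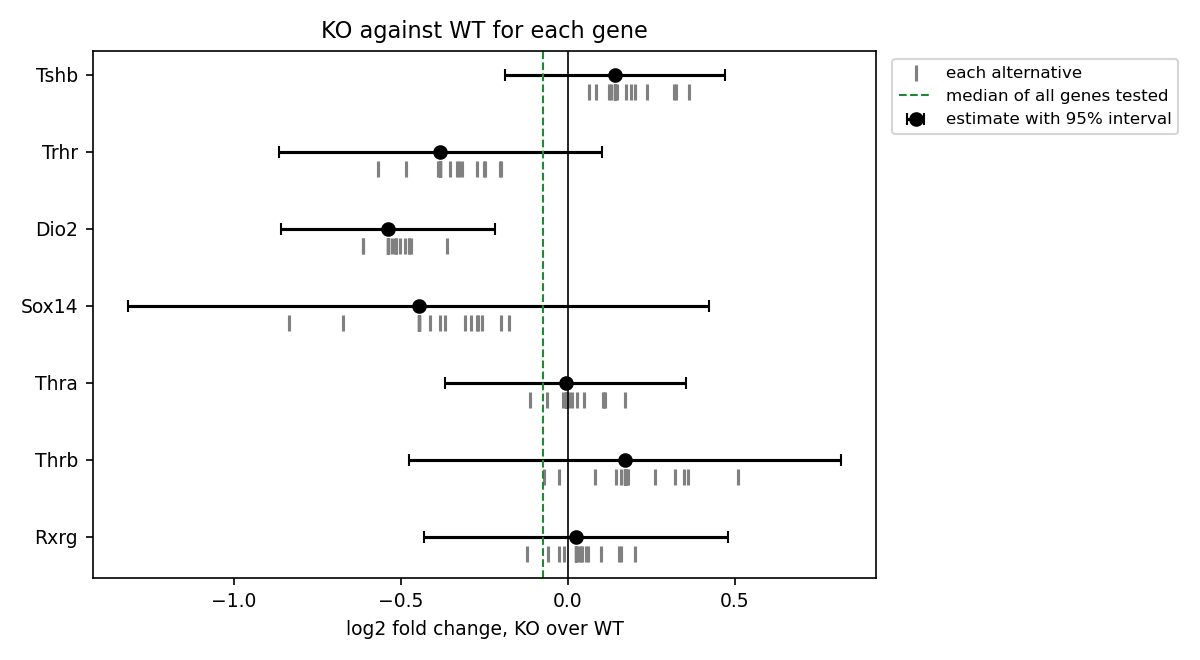
Log2 fold change, KO over WT (x axis), for the 7 genes with 95% intervals (black) and the value under each of 19 alternatives (grey ticks). The green dashed line is the median of all genes tested, -0.07. The interval of Dio2 alone lies to 1 side of 0.

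The rest of the pathway was read from 6 lists and Nr1d1, 66 genes in all, of which 58 were measured well enough to be tested. The lists were chosen with earlier results of these data known. Their shares beside those of all genes are therefore a description and no independent support. Limma called 0 of the 58 at an adjusted p under 0.05. At an unadjusted p under 0.05 there were 11 (19.0%, against 12.8% of all genes), 9 of them higher in KO (15.5%, against 3.99%) and 2 lower (3.45%, against 8.82%). Their median was 0.08, against -0.07 over all genes, and 40 of the 58 lay above the median of all genes. The background split moves with the scaling. Of all genes at an unadjusted p under 0.05, 68.9% were lower in KO here, 46.8% in the authors' value table, 42.9% with quantile normalization and 22.9% with median centring. With those 3 settings, the first over 56 of the genes, the pathway genes counted 11, 11 and 15 higher and 2, 2 and 0 lower. The shares higher in KO were 19.6%, 19% and 25.9%, against 7.62%, 6.76% and 10.5% of all genes. The shares lower in KO were 3.57%, 3.45% and 0%, against 6.71%, 5.08% and 3.11%. Groups did not overlap for 12 genes higher in KO (20.7%, against 7.23%) and for 4 lower (6.9%, against 13.4%). The count of 11 depended on single arrays, and so did the share of all genes. Without KO replicate 2 it was 4 (6.9%, against 7.99% of all genes), without KO replicate 3 it was 4 (6.9%, against 7.29%), and without WT replicate 3 it was 5 (8.62%, against 12.1%). In these 3 fits the pathway share was below that of all genes, while its share higher in KO was not. With KO replicate 2 or 3 left out, the share higher in KO was 5.17% or 3.45%, against 2.25% or 2.03%. Without WT replicate 3 it was 6.9%, against 3%. Without WT replicate 1 and without KO replicate 1 the count was 8 in each (13.8%, against 10.8% and 9.11%). Without WT replicate 2 the count was 12 (20.7%, against 20.4%), with 6 higher (10.3%, against 7.74%) and 6 lower (10.3%, against 12.7%). In slide row 1 alone it was 10 (17.2%, against 14.5%), with 5 higher (8.62%, against 5.49%) and 5 lower (8.62%, against 9%).

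**Figure D4:**
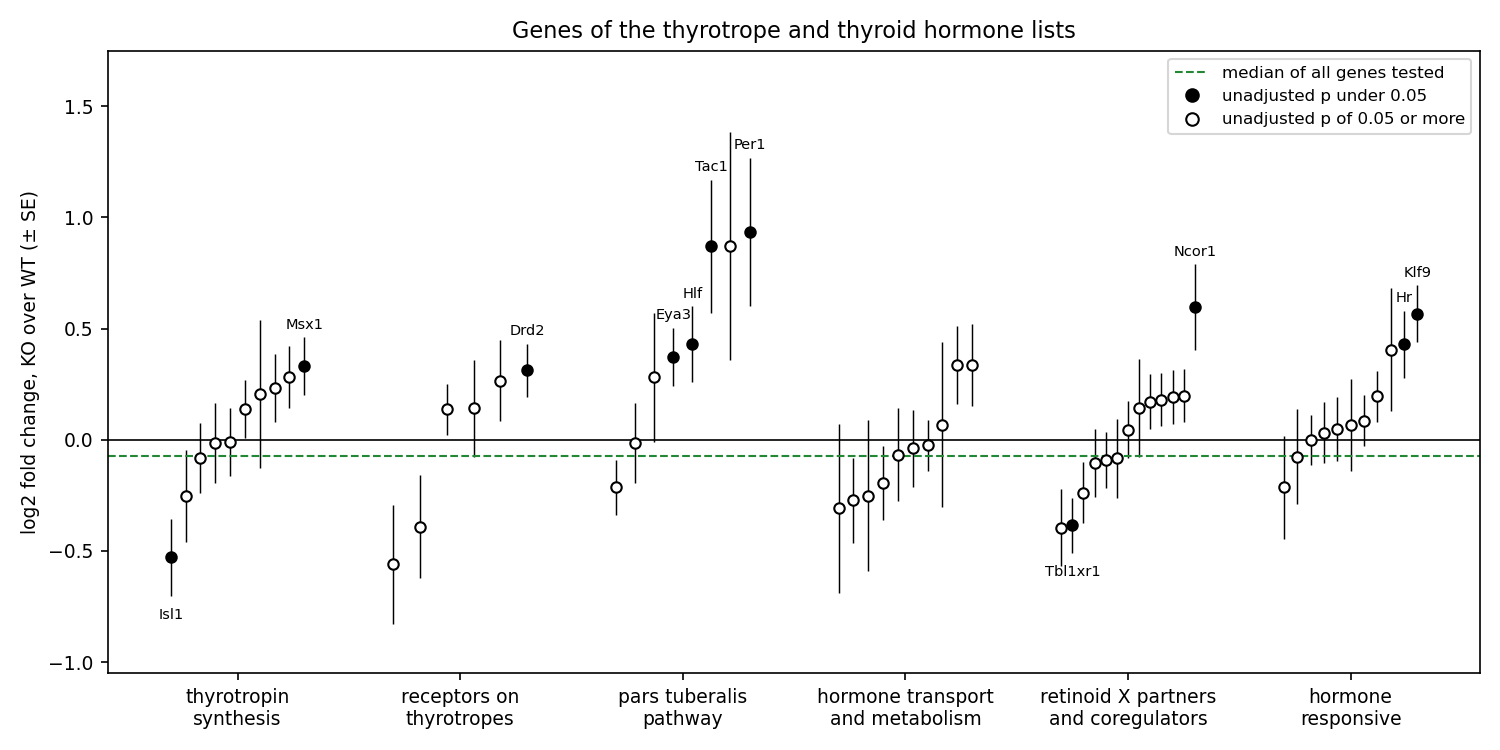
Log2 fold change, KO over WT, with its standard error (y axis) for each tested gene of the 6 lists (x axis). Filled points have an unadjusted p under 0.05. The green dashed line is the median of all genes tested, -0.07. In the list of the pars tuberalis pathway 4 of 8 points are filled and above 0, and in the list of transport and metabolism none is filled. Of all genes tested, 12.8% have an unadjusted p under 0.05 (3.99% higher and 8.82% lower in KO).

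Among regulators of thyrotropin synthesis, 5 of 10 tested genes were above 0 and 5 below (median 0.06). Isl1, a LIM homeodomain factor, read -1.03 to -0.63 in WT and -1.54 to -1.16 in KO (log2 fold change -0.53 ± 0.17, limma, adjusted p = 0.337), and its value was -0.30 in the authors' value table. Msx1, another homeodomain factor, read 1.74 to 2.0 in WT and 2.12 to 2.3 in KO (0.33 ± 0.13, adjusted p = 0.372). The groups did not overlap for these genes, which the rule for naming them required. The lineage factors Pou1f1 and Gata2, which act together on Tshb, had 0.14 ± 0.13 and 0.20 ± 0.33. Over the alternatives Gata2 ran from -0.17 to 0.56.

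Of 12 receptors through which other signals reach thyrotropes, 6 were bright enough to be tested. Drd2, the dopamine receptor that inhibits pituitary hormone cells, read -0.39 to -0.15 in WT and 0.01 to 0.04 in KO (0.31 ± 0.12, limma, adjusted p = 0.368). The somatostatin receptors Sstr1, Sstr3 and Sstr5 had values of 0.14, 0.26 and 0.14, with standard errors of 0.12 to 0.22. Trhr2, a relative of Trhr, had -0.56 ± 0.27, and -0.27 with quantile normalization. Genes below the filter, with no fold change given, were Sstr2, Nmur1, Nmur2, Tshr, Mc4r and Mtnr1a.

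The pars tuberalis, a strip of tissue at the top of the gland, has thyrotropes of its own that respond to melatonin through Mtnr1a. Neither Mtnr1a probe was well above background on any array. Of the 8 tested genes of this list, 6 were above 0 (median 0.40), and 4 had an unadjusted p under 0.05 (limma), all higher in KO. Over all genes 10573 of 26889 were above 0, and 12.8% had an unadjusted p under 0.05 (3.99% higher in KO). This list too was chosen with earlier results known. Eya3, a coactivator of Tshb in that tissue, read 2.38 to 2.72 in WT and 2.87 to 2.94 in KO (0.37 ± 0.13, limma, adjusted p = 0.347). The clock gene Per1 read 2.88 to 3.55 in WT and 3.57 to 4.83 in KO (0.94 ± 0.33, adjusted p = 0.353). Hlf, a clock-related factor, and Tac1, a tachykinin precursor, had 0.43 ± 0.17 and 0.87 ± 0.30 with overlapping groups. In the authors' value table Tac1 had 0.28, and after normexp 0.10. Tef, another factor of that pathway, had -0.01 ± 0.18.

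In the list of hormone transport and metabolism, 0 of 10 tested genes had an unadjusted p under 0.05 (limma), 3 were above 0 and the median was -0.05. The smallest p values belonged to Crym, which binds T3 in the cytosol (0.34 ± 0.18), to Dio1, the other activating deiodinase (0.34 ± 0.18), and to the retinaldehyde dehydrogenase gene Aldh1a1 (-0.27 ± 0.19), with adjusted p of 0.449, 0.466 and 0.548. In the authors' value table Dio1 had 0.15, and after normexp 0.019. The other Dio1 probes had 0.27 ± 0.24 and -0.06 ± 0.31. Dio3, which inactivates the hormone, was well above background on 2 arrays and was not tested.

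Among the retinoid X partners and coregulators, 7 of 13 were above 0 (median 0.05). The corepressor gene Ncor1 had 0.60 ± 0.19 at its brightest probe (limma, adjusted p = 0.336), but its 3 probes differed in sign, the others reading 0.60 ± 0.18 and -0.42 ± 0.12. Tbl1xr1, a subunit of the same corepressor complex, read 0.11 to 0.40 in WT and -0.12 to -0.10 in KO (-0.38 ± 0.12, adjusted p = 0.333), while its other probe had -0.02 ± 0.14. The coactivator genes Ncoa1, Ncoa2 and Ncoa3 had 0.19, 0.18 and 0.20, each with a standard error of 0.12. The other retinoid X receptors, Rxra and Rxrb, had -0.08 ± 0.18 and -0.11 ± 0.15, and 0.09 and 0.07 with median centring.

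Of 11 genes known to respond to thyroid hormone in one tissue or another, 8 were above 0 (median 0.07). Klf9, a transcription factor, read 1.5, 1.71 and 1.72 in WT and 2.13, 2.17 and 2.33 in KO (0.57 ± 0.13, limma, unadjusted p = 0.00318, adjusted p = 0.242). Hr, a corepressor, read 1.39 to 1.62 in WT and 1.68 to 2.08 in KO (0.43 ± 0.15, adjusted p = 0.348). Klf9 is also induced by glucocorticoids, and responses to the 2 hormones were not separated here. The remaining genes included Thrsp (0.05 ± 0.14), Me1 (0.03 ± 0.14) and Mbp (0.09 ± 0.11), each within its error of 0. Pcp2 (0.20 ± 0.11) and Dbp (0.40 ± 0.28) lay above 0 by more than their standard errors (limma, adjusted p of 0.485 and 0.538). The groups did not overlap for Pcp2, KO being higher, as for 7.23% of all genes.

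The genes whose values over the 6 arrays followed a member most closely were named by Pearson's r among 16456 genes with a symbol, as a description of 6 arrays only. For Dio2 they were Fbln7, Sbsn and Vps9d1 (r of 0.995, 0.993 and 0.991), and 346 genes had an r above 0.9. Sbsn read 1.02 to 1.16 in WT and 0.74 to 0.83 in KO. For Tshb they were Smim10l1, Vstm2l and Sh2b1 (0.991, 0.987 and 0.985), with 95 genes above 0.9, and for Thrb Frmd4a, Csf2rb2 and P4ha1 (0.987, 0.987 and 0.971), with 84. All points share the same arrays and their scaling.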

How the data were processed

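Per the labels, pituitary RNA was labelled with Cy3 for one-colour Agilent arrays. Per the file headers, 1 slide was read in 1 scan and Feature Extraction 11.0.1.1 made the deposited intensity values (gProcessedSignal), background-subtracted but not normalized between arrays. The authors' value table holds log2 values; it followed the log2 median spot signal of each array (r of 0.997 or more, column medians 8.25 to 8.26). How it was normalized is not stated in the sources used.

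Control and outlier spots were dropped, spots of a probe averaged, and each array's 75th percentile subtracted. A probe was kept where 3 or more arrays had it well above background, and the brightest probe stood for a gene. RefSeq accessions gave symbols to 27656 probes. KO was compared with WT by limma 3.58.1 in R 4.3.3 (two-sided, Benjamini-Hochberg adjustment, adjusted p under 0.05), tested on simulated data. There it recovered 1.2% of changes of size 0.5, 39.2% of size 1 and 79.2% of size 2. A gene that was not called can therefore still have changed. Single differences were compared by exact permutation over the 20 assignments of arrays. P-values from limma set a difference against the spread between these animals, with each gene's variance drawn toward that of all genes. Those from permutation rank the observed difference among the 20 assignments.

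Members and lists were chosen with earlier results of these data known. Beside every member, the rule named, per list, genes with an unadjusted p under 0.05 and groups that do not overlap, or else the 3 smallest p; other genes were added after their values were seen. Alternatives were normexp (offset 50, on median signals), quantile or median scaling, the authors' table, other filters, probe choices, variance models and thresholds, blocks, and leaving out arrays.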

Additional observations from a re-analysis of the deposited data

How the results depend on the processing

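None of the 7 genes passed an adjusted p under 0.05 under any of the 19 alternatives, and neither did any of the other pathway genes. Over these alternatives Tshb (0.06 to 0.36), Trhr (-0.57 to -0.20), Dio2 and Sox14 (-0.83 to -0.18) kept their sign. At an unadjusted p under 0.05, 1 of the 7 genes and 11 of the pathway genes were found. Tshb had an unadjusted p under 0.05 in the authors' value table alone (0.32, p = 0.0401, limma).

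Thra turned from -0.01 to 0.027 with normexp, 0.00498 with quantile normalization, 0.17 with median centring, 0.10 with the mean of its probes, 0.012 with array weights and 0.11 in slide row 1 alone, and ran from -0.11 to 0.11 when arrays were left out. Thrb ran from -0.071 to 0.36 when arrays were left out and was 0.51 in slide row 1 alone. Rxrg turned to -0.010 in slide row 1 alone and ran from -0.12 to 0.16 when arrays were left out. No cause was tested.

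The count of all genes called moved from 0 to 24 with normexp, 19 with median centring, 27 in the authors' table, 12 with the filter on all arrays and 28 with a variance trend and robust fitting. It was 15 at an adjusted p under 0.1 and 3443 at an unadjusted p under 0.05, and ran from 0 to 1 when arrays were left out.

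In the sample titles, same-numbered arrays shared only a number. Their deviations from the group means correlated at 0.15, -0.18 and -0.08 across genes. These correlations cannot show whether same-numbered animals came from the same litter. With the replicate block the pathway genes at an unadjusted p under 0.05 numbered 8 (13.8%, against 10.6% of all genes), Dio2 had -0.54 (adjusted p = 0.446), and no call changed. The sign-flip test over the 3 pairs gave p = 0.25 (exact) for Dio2 minus Tshb, its smallest possible value. Slide row 2 held 1 array per group and gave no test of its own.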
